A study of Mus musculus with 24 samples.

Results

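Macrophages carry receptors for the constant (Fc) part of IgG, and the genes of these receptors are described here across 6 groups of mouse bone marrow-derived macrophages. The set has 6 members, found by gene symbol among the 54532 genes of the deposited table: the activating receptors Fcgr1, Fcgr3 and Fcgr4, the signalling chain Fcer1g, the inhibitory receptor Fcgr2b, and Fcgrt. All 6 passed the filter on low values and were tested. In wild-type (WT) cells Fcgr2b and Fcgr3 fell and Fcgr4 rose under both treatments of the study, and Fcgr1 rose under 1 of them. In Trem2 knockout (KO) cells none of the 6 genes passed the test under either treatment, where 0.00879% of all genes tested did. The untreated KO group holds a library that goes against its label. Leaving it out gave no call among the 6 either, where 0.044% and 0.185% of all genes passed.

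In mice, binding of IgG-coated particles to Fcgr1, Fcgr3 or Fcgr4 passes a signal through Fcer1g, the common gamma chain, whose tyrosine motif (ITAM) is phosphorylated by Src-family kinases and then recruits the kinase Syk. Fcgr2b binds the same complexes, but its own motif recruits phosphatases such as Inpp5d (SHIP1) that oppose this signal. The balance of activating and inhibitory receptors on a macrophage is known to set its threshold for phagocytosis and cytokine release in response to immune complexes. Fcgrt encodes the heavy chain of FcRn, an intracellular receptor that recycles IgG and albumin and does not signal through Fcer1g.

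The cells came from C57BL/6 mice, either Trem2(-/-) or WT, and were grown from marrow for 7 days in medium conditioned by L929 fibroblasts. Trem2 is a lipid-sensing surface receptor that signals through the adaptor Tyrobp. The groups are KO ACM, KO S1P, KO untreated, WT ACM, WT S1P and WT untreated, each with 4 libraries, 24 in all. S1P is sphingosine-1-phosphate, a lipid signal, given at 500 nM for 24 hours. ACM, also given for 24 hours, is serum-free medium conditioned by dying hepatocytes of the mouse line AML12, which palmitate at 800 µM had made apoptotic. The sources used here do not give the knockout allele, or the medium and any vehicle of the untreated cells. An agent therefore cannot be told apart from its medium or vehicle. No batch, culture or animal is named, so the spread that p-values measure here is that of libraries and may be technical. Library numbers run in a separate block for every group. The labels do not say what the numbers stand for, and a batch that followed them could not be told apart from group.

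The targeted gene was examined first, as a check of the labels. Trem2 averaged 39.2 ± 1.67 FPKM in KO ACM cells against 90.1 ± 2.73 in WT ACM cells, and 39.6 ± 0.983 in KO S1P cells against 103 ± 4.70 in WT S1P cells (SD, n = 4 each). FPKM counts fragments relative to exon length and library size, here for whole genes, so the exons behind the remaining Trem2 reads are unknown. Of the KO untreated libraries 3 had 35.7 to 40.2 FPKM, but the library labelled KO untreated 81 had 79.6, inside the WT untreated range of 74.5 to 82.7. That library goes against its label. It was kept in the tests, and tests against KO untreated cells are given with and without it. All groups share an estimate of the spread, so that library also enters the standard error (SE) of every other test. Depths of 16.6 to 25.2 M reads per library were recovered from the deposited values, and each Fc receptor gene had at least 372 of them in every library. All 8 macrophage markers (among them Adgre1, Csf1r and Lyz2) were present, while the lists of 4 B cell, 4 NK cell, 5 mast cell or basophil and 7 dendritic cell markers held 0 genes with a mean FPKM of 1. Of 8 neutrophil markers 1 reached that level, Csf3r.

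Most of the family lies in 1 stretch of mouse chromosome 1 (GRCm38, GENCODE M21). Fcgr2b (170958617 to 170976547, minus strand), Fcgr4 (171018920 to 171029761, plus strand), Fcgr3 (171051174 to 171064935, minus strand) and Fcer1g (171229572 to 171234365, minus strand) follow each other there. No other protein-coding gene lies between Fcgr2b and Fcgr4 or between Fcgr4 and Fcgr3. Fcgr1 lies on chromosome 3 (96282909 to 96293969) and Fcgrt on chromosome 7 (45092990 to 45103851), both on the minus strand. Fcgr2b and Fcgr3 share exact runs of up to 129 bases of transcript, and 5.42% of the 75-base windows of Fcgr3 also occur in Fcgr2b. Of the windows of Fcgr2b 5.43% also occur in Fcgr3 or in other genes. Reads from those runs could be split between genes. The other 4 members share no 75-base window with another gene. The antisense genes Gm38204, over Fcgr2b, and Gm45669, over Fcgrt, reached at most 0.64 and 0.29 FPKM, and the strand setting of the counting is not known here.

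Sequences before the RefSeq starts of the 4 surface receptor genes are shown because these genes moved in opposite directions in WT cells. The sequences are RefSeq's (GRCm38.p6), 5′ to 3′ on the gene's strand, and each is the longest stretch outside annotated exons in the 250 bases before the start. For Fcgr2b that is 47 bases and does not reach the start. The Fcgr4 stretch stops 6 bases short of the RefSeq start. The Fcgr3 stretch reaches 1 of its 2 RefSeq starts and stops short of the other. The Fcgr3 and Fcgr2b stretches lie inside the gene bodies that GENCODE M21 annotates. Bases before the GENCODE starts of Fcgr3 and Fcgr2b were not searched. They are chr3:96293970-96294219 (minus) for Fcgr1, chr1:171018676-171018919 (plus) for Fcgr4, chr1:171059404-171059626 (minus) for Fcgr3 and chr1:170976128-170976174 (minus) for Fcgr2b. Capitals mark matches to GAGGAA, on either strand, the core bound by the myeloid factor PU.1, and to TTCNNNGAA, the GAS element bound by STAT dimers, known for the interferon-gamma response of the human gene FCGR1A.
Fcgr1: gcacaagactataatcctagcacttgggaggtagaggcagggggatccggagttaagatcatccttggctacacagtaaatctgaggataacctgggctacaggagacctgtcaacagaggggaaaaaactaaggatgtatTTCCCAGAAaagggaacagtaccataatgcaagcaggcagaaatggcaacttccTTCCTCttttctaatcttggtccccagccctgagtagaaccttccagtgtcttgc
Fcgr4: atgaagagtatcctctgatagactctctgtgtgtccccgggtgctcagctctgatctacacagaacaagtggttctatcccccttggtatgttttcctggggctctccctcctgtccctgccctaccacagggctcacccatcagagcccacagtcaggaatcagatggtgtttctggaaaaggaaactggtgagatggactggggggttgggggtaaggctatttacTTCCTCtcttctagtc
Fcgr3: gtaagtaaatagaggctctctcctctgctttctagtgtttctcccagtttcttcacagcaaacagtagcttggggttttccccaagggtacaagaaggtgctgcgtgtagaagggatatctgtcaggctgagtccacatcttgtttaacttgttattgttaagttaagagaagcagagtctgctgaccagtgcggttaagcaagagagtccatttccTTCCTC
Fcgr2b: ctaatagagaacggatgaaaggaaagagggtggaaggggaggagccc
The PU.1 core lay at -55 to -50 from the start RefSeq annotates in Fcgr1, at -22 to -17 in Fcgr4 and, in Fcgr3, at -6 to -1 from 1 of its 2 RefSeq starts and -15 to -10 from the other. The GAS match lay at -109 to -101 in Fcgr1. In the whole 250 bases before the RefSeq start, exon bases included, neither motif matched in Fcgr2b, Fcer1g or Fcgrt. Among 32851 RefSeq promoters, 23.3% held the PU.1 core and 7.02% the GAS letters in windows of 250 bases, and the matches did not overlap each other. A match describes these letters and no binding was measured.

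In WT cells the activating receptors split under ACM. Limma called 5 of the 6 genes, 2 higher and 3 lower in WT ACM than in WT untreated cells, where 22.1% of the 11377 genes tested were called. Fcgr4, a mouse receptor for IgG2a and IgG2b, had 44.4, 46.7, 49.1 and 43.7 FPKM in WT ACM and 36.5, 31.3, 28.6 and 25.3 in WT S1P libraries, against 19.5, 21.97, 20.4 and 23.04 in WT untreated libraries. Each treated library exceeded every untreated one. Over all genes tested, 28.8% did not overlap between WT ACM and WT untreated cells and 45.2% between WT S1P and WT untreated cells. Between WT ACM and WT S1P cells 37.2% did not. These shares stand beside each statement on overlap in WT cells below. The mean was 2.17-fold higher with ACM and 1.43-fold higher with S1P. On the log2(FPKM + 1) scale, Fcgr4 rose with ACM by 1.08 ± 0.18 (SE, limma adjusted p = 0.000238). With S1P it rose by 0.49 ± 0.18 (adjusted p = 0.0284). With no filter on low genes the S1P adjusted p was 0.0724, above the threshold. The call was also lost without WT S1P 25 (0.40, adjusted p = 0.0901) or 26 (0.47, 0.0573), and without WT untreated 1 (0.45, 0.0683) or 3 (0.47, 0.0575). Leaving out the library labelled KO untreated 81, which enters the shared spread, lowered the SE to 0.08. The limma adjusted p was then 3.07e-09 with ACM and 2.12e-05 with S1P.

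Fcgr1, the high-affinity receptor for monomeric IgG, rose with ACM but was uneven under S1P. Its FPKM was 124, 126, 129 and 121 in WT ACM and 98.5, 79.5, 66.1 and 63.8 in WT S1P libraries, against 88.6, 83.1, 90.0 and 82.7 in WT untreated libraries. The ACM libraries lie above all untreated ones, at 1.45 times their mean, while 1 S1P library lies above the untreated range and 3 below it. The ACM rise was 0.53 ± 0.16 (limma adjusted p = 0.0192; 0.0552 with no filter on low genes). The S1P difference, -0.18 ± 0.16, did not pass (adjusted p = 0.358). Leaving out the library labelled KO untreated 81 lowered the SE of both to 0.09. The limma adjusted p was then 8.98e-05 with ACM and 0.0818 with S1P.

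Fcgr3, the low-affinity activating receptor, was the most abundant of the receptors per length of transcript and fell under both treatments. It had 241, 244, 245 and 239 FPKM in WT ACM and 190.3, 185, 153 and 159.7 in WT S1P libraries, against 264, 293, 289 and 292 in WT untreated libraries. The 3 groups did not overlap. Fcgr3 fell by 0.23 on the log2 scale with ACM (SE 0.06, limma adjusted p = 0.00637). With S1P it fell by 0.73 (SE 0.06, adjusted p = 1.26e-09), a mean 39.5% below that of untreated cells.

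Fcgr2b, the inhibitory receptor, fell most of the family. Its FPKM was 23.4, 24.1, 24.5 and 25.02 in WT ACM and 17.5, 14.1, 11.4 and 10.98 in WT S1P libraries, against 39.4, 39.3, 39.2 and 40.9 in WT untreated libraries. Every ACM library lies between the S1P and untreated ones with no overlap. Fcgr2b fell by 0.69 on the log2 scale with ACM (SE 0.13, limma adjusted p = 0.000897), 38.9% below the untreated mean. With S1P it fell by 1.51 (SE 0.13, adjusted p = 6.52e-09), 66.0% below that mean.

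Fcer1g, the chain through which Fcgr1, Fcgr3 and Fcgr4 signal, was the most abundant member. It had 705, 708, 767 and 717 FPKM in WT ACM and 651, 608, 509 and 515 in WT S1P libraries, against 688, 729, 729 and 695 in WT untreated libraries. The ACM and untreated ranges overlap, and the S1P libraries lie below both. Fcer1g differed by 0.03 ± 0.06 with ACM (limma adjusted p = 0.798), and its sign changed with TPM, protein-coding and quantile scaling and without WT ACM 21. With S1P it fell by 0.32 (SE 0.06, adjusted p = 0.000144). In these bulk samples fewer cells expressing a gene and less RNA of it per cell cannot be told apart.

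Fcgrt, the FcRn heavy chain, moved with Fcgr3 and Fcgr2b. It had 22.9, 21.8, 20.9 and 20.1 FPKM in WT ACM and 19.4, 18.6, 17.3 and 16.4 in WT S1P libraries, against 24.6, 25.4, 23.1 and 23.8 in WT untreated libraries. The 3 groups did not overlap. The S1P fall of 0.42 on the log2 scale (limma adjusted p = 5.36e-06) was called in all 34 alternative settings, while the ACM fall of 0.17 lay at the threshold (adjusted p = 0.0481). That ACM call was lost in 17 of 34 settings, among them no filter (adjusted p = 0.11) and no mean-variance trend (0.0548). It was lost without WT untreated 1, 2 or 4, WT ACM 20, 21 or 22, WT S1P 26, KO untreated 80 or 82, KO ACM 85 or 88, or KO S1P 91, 92, 93 or 94 (-0.18 to -0.14, adjusted p 0.0504 to 0.141).

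**Figure D1:**
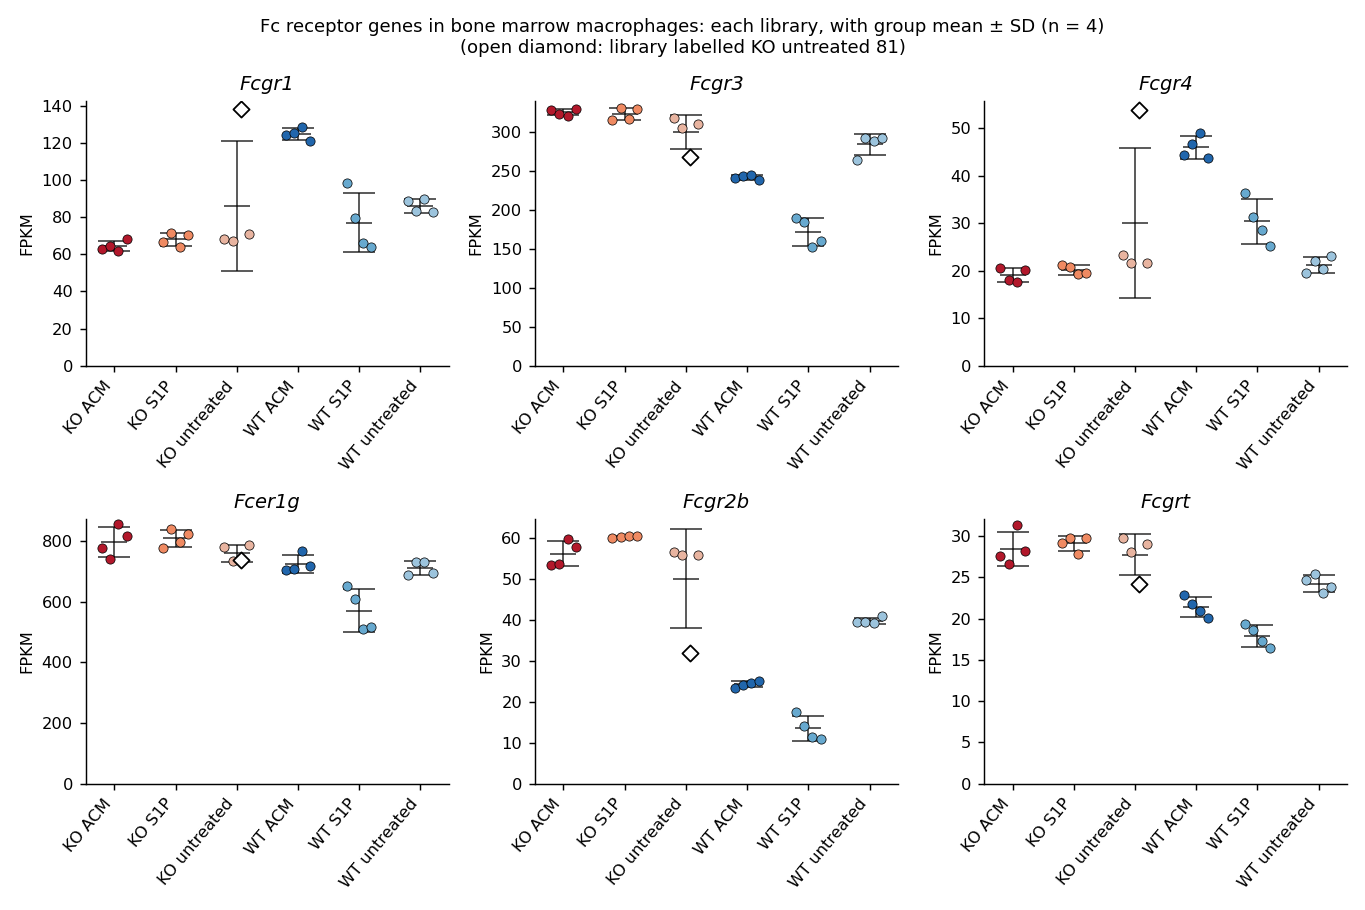
FPKM of the 6 Fc receptor genes in each library (points) by group, with the group mean ± SD (bars, n = 4 libraries); the open diamond is the library labelled KO untreated 81, which is included in the KO untreated mean. The KO groups lie level with each other apart from that library, while WT ACM and WT S1P depart from WT untreated, downwards in Fcgr2b and Fcgr3 and upwards in Fcgr4.

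Counted over the family, S1P in WT cells gave 5 of 6 calls, 1 higher and 4 lower, where 52.4% of all genes tested were called. Both WT comparisons share the 4 untreated libraries. In each of them the groups did not overlap in 5 of 6 members, as in 28.8% (ACM) and 45.2% (S1P) of all genes. Set against each other, WT ACM cells were higher than WT S1P cells in 6 of 6 genes, where 41.5% of all genes tested were called. The groups did not overlap in these 6, as in 37.2% of all genes. The differences ran from 0.25 ± 0.06 for Fcgrt (limma adjusted p = 0.0025; 0.18, adjusted p = 0.0976 with TPM scaling) to 0.82 ± 0.13 for Fcgr2b (adjusted p = 4.72e-05). The S1P libraries were uneven, and WT S1P 25 was the highest of the 4 in all 6 genes, with a high to low fold within the group of 1.18 for Fcgrt and 1.60 for Fcgr2b at the extremes. Beside this, the summed FPKM of the 8 macrophage markers was 4621 to 6378 in WT S1P against 7837 to 8031 in WT untreated libraries, most of it Lyz2; its part in the result was not tested.

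In KO cells the levels of the family lay close together across treatments, apart from 1 library. Fcgr2b had 53.4, 53.7, 59.8 and 57.7 FPKM in KO ACM libraries and 60.0, 60.2, 60.5 and 60.3 in KO S1P libraries. In KO untreated libraries it had 56.6, 55.7 and 55.9, and 32.0 in the library labelled KO untreated 81. Apart from that library, the 11 KO libraries span 53.4 to 60.5 FPKM, above all 12 WT libraries. Fcgr3 had 328, 324, 321 and 329.6 FPKM in KO ACM and 316, 331, 317 and 330.2 in KO S1P libraries. Its KO untreated libraries had 318, 305 and 311 FPKM, and the library labelled KO untreated 81 had 269. Of the KO libraries that is the lowest, and it is the only 1 of them inside the WT untreated range.

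The activating receptors that ACM raised in WT cells were not higher in treated KO cells. Fcgr1 had 62.7, 64.2, 61.9 and 68.0 FPKM in KO ACM and 66.5, 71.5, 63.8 and 70.1 in KO S1P libraries. Its KO untreated libraries had 68.0, 66.9 and 70.7 FPKM, and the library labelled KO untreated 81 had 138, above every WT ACM library. Fcgr4 had 20.6, 17.98, 17.7 and 20.2 FPKM in KO ACM and 21.3, 20.9, 19.2 and 19.5 in KO S1P libraries. Its KO untreated libraries had 23.2, 21.7 and 21.7 FPKM, and the library labelled KO untreated 81 had 53.8, again above every WT ACM library. Of the 24 libraries it holds the highest value of both genes.

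Limma called 0 of 6 genes for KO ACM and 0 of 6 for KO S1P against KO untreated cells, where 0.00879% of all genes tested were called in each. At an unadjusted p under 0.05 there were 2 in each, Fcgr1 and Fcgr4 for ACM and Fcgr2b and Fcgr4 for S1P. Exact 2-sided permutation tests gave p = 0.0286, the smallest that 70 arrangements of 4 and 4 libraries allow, for 2 in each, Fcgr3 and Fcgr4 for ACM and Fcgr2b and Fcgr4 for S1P. In these genes the groups did not overlap, as in 5.08% of all genes for ACM and 5.66% for S1P. Without the library labelled KO untreated 81 limma again called 0 of 6 for each treatment, where 0.044% and 0.185% of all genes were called. At an unadjusted p under 0.05 there was then 1 gene for ACM, Fcgr4, and 0 for S1P. Exact permutation then gave p = 0.0286 for Fcgr3 under ACM and for Fcgr2b under S1P. The groups of 2 members did not overlap in each case, as in 10.2% of all genes for ACM and 11.5% for S1P. The differences without that library ran, with ACM, from -0.21 ± 0.09 for Fcgr4 to 0.07 ± 0.05 for Fcgr3 and, with S1P, from -0.13 ± 0.09 for Fcgr4 to 0.10 ± 0.09 for Fcgr2b (limma, SE). Several moved by more than 1.5 times when it was left out. Fcgr4 differed by -0.52 ± 0.18 with ACM and -0.44 ± 0.18 with S1P when all 4 KO untreated libraries were used. Fcgr1 then differed by -0.34 ± 0.16 with ACM and -0.26 ± 0.16 with S1P (-0.09 ± 0.09 and -0.01 ± 0.09 without it). Fcgr2b differed by 0.20 ± 0.13 and 0.30 ± 0.13 (0.00 ± 0.09 and 0.10 ± 0.09 without it), and Fcgr3 by 0.12 ± 0.06 and 0.11 ± 0.06 (0.07 ± 0.05 and 0.05 ± 0.05). Fcer1g differed by 0.07 ± 0.06 and 0.09 ± 0.06 (0.05 ± 0.07 and 0.07 ± 0.07 without it), and Fcgrt by 0.04 ± 0.06 and 0.07 ± 0.06 (-0.03 ± 0.06 and 0.01 ± 0.06). KO ACM and KO S1P cells differed in 0 of 6 genes by limma, also 0 at an unadjusted p under 0.05, where 0.0352% of all genes were called. The exact permutation test gave p = 0.0286 for Fcgr2b there, and 6.32% of all genes likewise did not overlap.

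**Figure D2:**
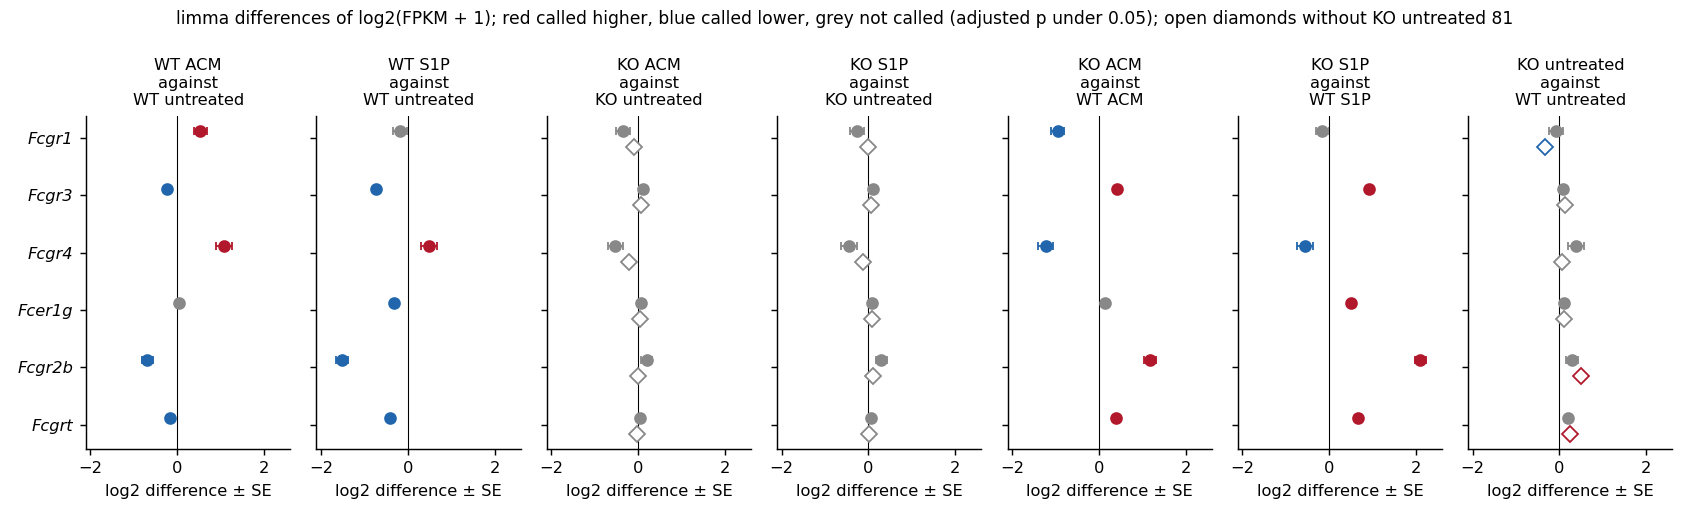
Differences of log2(FPKM + 1) with their SE (limma) for the 6 genes in 7 comparisons; filled circles use all 24 libraries and open diamonds leave out the library labelled KO untreated 81. Fcgr2b and Fcgr3 lie left of 0 in the WT treatments and right of 0 in treated KO against treated WT cells, Fcgr4 the reverse. The KO treatments hold no call, where 0.00879% of all genes were called with all libraries.

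The genotypes were then compared within each treatment, which asks whether the family differs in cells without Trem2. In ACM 5 of 6 genes were called in KO against WT cells, 3 higher and 2 lower, where 28% of all genes tested were called. Fcgr2b averaged 56.1 ± 3.11 FPKM in KO ACM and 24.3 ± 0.695 in WT ACM cells (SD, n = 4 each), a difference of 1.18 ± 0.13 (limma adjusted p = 2.26e-06). Fcgr4 averaged 19.1 ± 1.47 in KO ACM and 46.0 ± 2.44 in WT ACM cells, a difference of -1.22 ± 0.18 (adjusted p = 3.41e-05). Fcgr1 was lower as well, at -0.95 ± 0.16 (adjusted p = 0.000102). Fcgr3 was higher by 0.43 ± 0.06 and Fcgrt by 0.39 ± 0.06 (adjusted p = 1.24e-05 and 5.22e-05). Fcer1g averaged 798 ± 49.6 FPKM in KO ACM and 724 ± 29.0 in WT ACM cells. That difference of 0.14 ± 0.06 did not pass (limma adjusted p = 0.102), but it was called with protein-coding scaling (adjusted p = 0.012), quantile normalization (0.0108), a fit of only these 8 libraries (0.0478) and without WT S1P 25 (0.0471).

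Under S1P the Fcgr2b difference was the largest in the family. Fcgr2b averaged 60.3 ± 0.207 FPKM in KO cells and 13.5 ± 3.02 in WT cells given S1P (n = 4 each, SD), a difference of 2.10 ± 0.13 (limma adjusted p = 6.13e-11). Fcgr3 averaged 323 ± 8.11 in KO S1P and 172 ± 18.4 in WT S1P cells, a difference of 0.91 ± 0.06 (adjusted p = 5.15e-11). Fcer1g was higher by 0.51 ± 0.06 (adjusted p = 4.96e-07) and Fcgrt by 0.67 ± 0.06 (adjusted p = 8.31e-09). Fcgr4 was lower, at -0.55 ± 0.18 (adjusted p = 0.014), with 19.2 to 21.3 FPKM in KO S1P against 25.3 to 36.5 in WT S1P libraries. Fcgr1 differed by -0.16 ± 0.16 and did not pass (adjusted p = 0.43), its ranges overlapping. In all, 5 of 6 genes were called, 4 higher and 1 lower, where 52.4% of all genes tested were called.

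Without treatment the contrast depends on the library labelled KO untreated 81. With it limma called 0 of 6 genes between KO untreated and WT untreated cells, where 2.47% of all genes tested were called. At an unadjusted p under 0.05 there were 2, Fcgr2b and Fcgrt, and the exact permutation test gave p = 0.0286 for 1, Fcer1g, where 9.09% of all genes did not overlap. Without it limma called 3, where 8.15% of all genes were called. At an unadjusted p under 0.05 there were then 4, Fcgr1, Fcgr2b, Fcgr3 and Fcgrt. Exact permutation then gave p = 0.0286 for 5, these and Fcer1g. The groups did not overlap in those 5, as in 22.5% of all genes. Fcgr2b then averaged 56.1 ± 0.463 FPKM in 3 KO untreated libraries and 39.7 ± 0.808 in 4 WT untreated libraries, higher by 0.49 ± 0.09 (adjusted p = 0.00163; 0.29 ± 0.13, adjusted p = 0.285 with it). Fcgrt was higher by 0.25 ± 0.06 (adjusted p = 0.00715; 0.19 ± 0.06, adjusted p = 0.111 with it). Fcgr1 averaged 68.5 ± 1.94 FPKM in those 3 KO untreated libraries and 86.1 ± 3.72 in WT untreated libraries, lower, at -0.32 ± 0.09 (adjusted p = 0.0321). With it the Fcgr1 difference was -0.07 ± 0.16 (adjusted p = 0.856), and it was 0.01 without KO untreated 79 and 0.02 without KO untreated 80. Fcgr3 (0.13 ± 0.05 without it, 0.08 ± 0.06 with it) and Fcer1g (0.11 ± 0.07 and 0.10 ± 0.06) did not pass in limma after adjustment. Fcgr4 did not pass in either case, at 0.07 ± 0.09 without the library labelled KO untreated 81 and 0.38 ± 0.18 with it.

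The interaction of genotype and treatment, the KO response minus the WT response, was called for 4 of 6 genes under ACM, where 17.1% of all genes tested were called. Without the library labelled KO untreated 81 the same 4 genes were called, where 14.9% of all genes were called. For Fcgr4 it was -1.60 ± 0.26 (limma adjusted p = 0.00028), and -1.29 ± 0.12 without that library. For Fcgr1 it was -0.88 ± 0.22 (adjusted p = 0.00935; -0.63 ± 0.13 without it), for Fcgr2b 0.89 ± 0.19 (0.0026; 0.69 ± 0.12) and for Fcgr3 0.35 ± 0.08 (0.00509; 0.30 ± 0.07). Under S1P it was called for 5 of 6 genes, where 41.9% of all genes tested were called, and 41.6% without that library. It was 1.81 ± 0.19 for Fcgr2b (adjusted p = 2.36e-07; 1.61 ± 0.12 without it) and 0.83 ± 0.08 for Fcgr3 (8.98e-08; 0.78 ± 0.07). Fcgrt gave 0.49 ± 0.09, Fcer1g 0.41 ± 0.09 and Fcgr4 -0.93 ± 0.26 (adjusted p = 9.69e-05, 0.000641 and 0.00579). Without that library they gave 0.42 ± 0.08, 0.40 ± 0.09 and -0.62 ± 0.12. Fcgr1 did not pass under S1P, at -0.08 ± 0.22 with it and 0.17 ± 0.13 without it.

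Ratios within a library do not depend on how libraries are scaled, and they show the activating genes against the inhibitory one. They are descriptions with no test, in FPKM per FPKM. The ratio of Fcgr4 to Fcgr2b was 0.297 to 0.385 in KO ACM and 0.318 to 0.355 in KO S1P libraries. It was 0.389 to 0.410 in 3 KO untreated libraries and 1.68 in the library labelled KO untreated 81. In WT cells it was 1.75 to 2.00 with ACM and 2.08 to 2.50 with S1P, against 0.494 to 0.563 untreated. Fcgr4 thus exceeded Fcgr2b in the 8 treated WT libraries and in the library labelled KO untreated 81, and was the lower of the pair in the other 15.

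The ratio of Fcgr1 to Fcgr2b was 1.04 to 1.20 in KO ACM and 1.06 to 1.19 in KO S1P libraries. It was 1.20 to 1.27 in 3 KO untreated libraries and 4.32 in the library labelled KO untreated 81. In WT cells it was 4.84 to 5.32 with ACM and 5.62 to 5.81 with S1P, against 2.02 to 2.30 untreated. Within WT S1P the ratio was nearly constant, with an SD of 0.027 on the log2 scale, although Fcgr1 itself ranged over 63.8 to 98.5 FPKM and Fcgr2b over 10.98 to 17.5. The order of groups is thus not that of Fcgr1 alone, which did not pass the test under S1P.

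The ratio of Fcgr3 to Fcgr2b was 5.38 to 6.14 in KO ACM and 5.24 to 5.49 in KO S1P libraries, and 5.48 to 5.61 in 3 KO untreated libraries with 8.41 in the library labelled KO untreated 81. In WT cells it was 9.54 to 10.3 with ACM and 10.9 to 14.5 with S1P, against 6.69 to 7.44 untreated. Fcgr3 fell in WT cells, but less than Fcgr2b. All 3 ratios were higher in treated than in untreated WT libraries, and lower in the 11 other KO libraries than in any WT library.

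**Figure D3:**
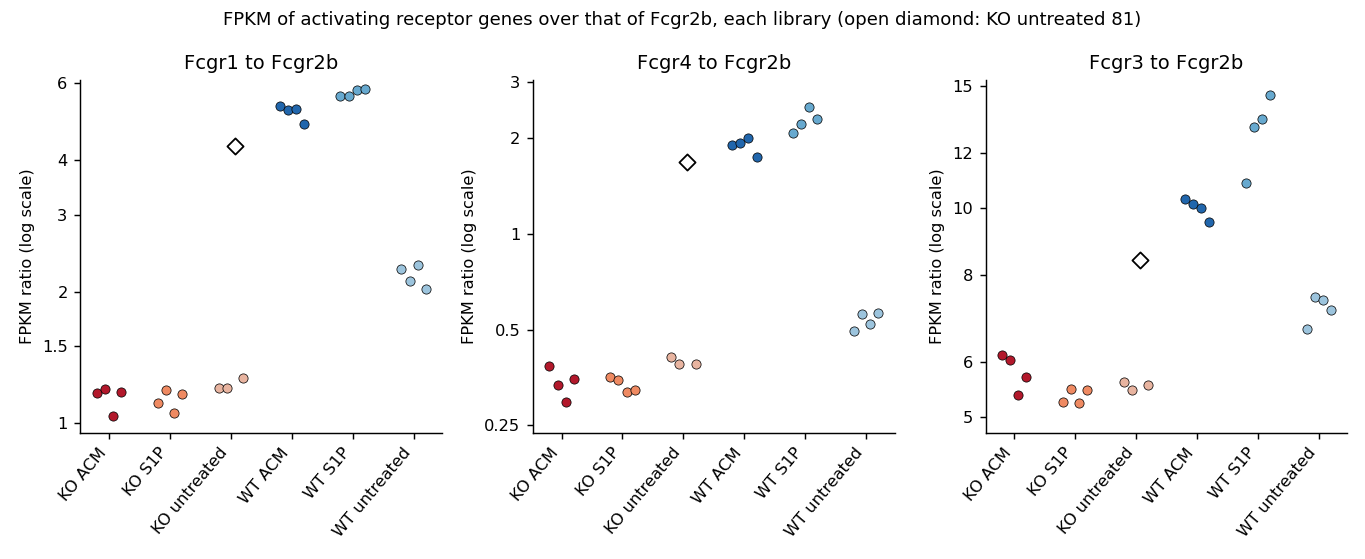
FPKM of Fcgr1, Fcgr4 and Fcgr3 divided by that of Fcgr2b in each library (points, log axis) by group; the open diamond is the library labelled KO untreated 81. WT ACM and WT S1P libraries lie highest, WT untreated lower and the KO libraries lowest, apart from the open diamond.

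In KO cells Fcer1g and Fcgrt also lay close together. Fcer1g had 778, 741, 856 and 818 FPKM in KO ACM and 776, 839.7, 796 and 823 in KO S1P libraries. Its KO untreated libraries had 781, 734 and 788 FPKM, and the library labelled KO untreated 81 had 738. The 3 groups overlap. Fcgrt had 27.6, 26.6, 31.4 and 28.2 FPKM in KO ACM and 29.1, 29.8, 27.8 and 29.7 in KO S1P libraries. Its KO untreated libraries had 29.8, 28.1 and 29.03 FPKM, and the library labelled KO untreated 81 had 24.2, the lowest KO value and inside the WT untreated range.

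Ordered by group mean, Fcgr2b was highest in KO S1P (60.3 FPKM), then KO ACM (56.1), KO untreated (50.05; 56.1 without the library labelled KO untreated 81), WT untreated (39.7), WT ACM (24.3) and WT S1P (13.5). Of these neighbours KO ACM and KO untreated overlap, and KO untreated reaches below WT untreated through that library. Fcgr3 had the order KO ACM (326), KO S1P (323), KO untreated (301; 311 without it), WT untreated (284), WT ACM (242) and WT S1P (172), with neighbours overlapping down to WT untreated, the last of them only through that library. Fcgr4 had the order WT ACM (46.0), WT S1P (30.4), KO untreated (30.1; 22.2 without that library), WT untreated (21.2), KO S1P (20.2) and KO ACM (19.1), where all neighbours from KO untreated down overlap. Fcgr1 had the order WT ACM (125), WT untreated (86.1), KO untreated (85.97; 68.5 without that library), WT S1P (77.0), KO S1P (68.0) and KO ACM (64.2). Without that library KO untreated comes after WT S1P in the Fcgr1 order and does not overlap WT untreated. In that order WT ACM is the only group apart from its neighbour. Fcer1g had the order KO S1P (808), KO ACM (798), KO untreated (760.2; 768 without that library), WT ACM (724), WT untreated (710.4) and WT S1P (571), of which only WT S1P is apart from its neighbour. Fcgrt had the order KO S1P (29.1), KO ACM (28.4), KO untreated (27.8; 28.95 without that library), WT untreated (24.2), WT ACM (21.4) and WT S1P (17.9), with the WT groups apart from each other. Per length of transcript, Fcer1g was the most abundant member in all 24 libraries and Fcgr3 came next.

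Across the 24 libraries Fcgr2b, Fcgr3, Fcer1g and Fcgrt varied together, with Pearson correlations of log2(FPKM + 1) of 0.89 to 0.98 between pairs. Fcgr1 and Fcgr4 formed the other pair, at 0.88. These libraries fall into 6 groups, so the values describe the group pattern and have no test. Among 6771 protein-coding genes with a mean FPKM of at least 5, those most like Fcgr2b were Plau, Fcrls, Mmp27, Cd33 and Slc31a1 (0.994 to 0.990). Those most like Fcgr3 were Gas6, Stab1, Ctsc, Plau and Cbr2 (0.987 to 0.982). Fcgrt was most like Lgmn, Slc31a1, Dpp7, Mpzl1 and Fcrls (0.972 to 0.963), and Fcer1g most like AB124611, Ccl2, Arpc3, Snx8 and Ccl7 (0.953 to 0.946). Those most like Fcgr1 were Parp12, Cd72, Trim30a, Phf11d and Zbp1 (0.984 to 0.970). Those most like Fcgr4 were Oas3, Ifi44, Ifi204, Tor3a and Ifit2 (0.982 to 0.969). Plau, Fcrls and Slc31a1 appear for more than 1 member, all of them for genes of the first set.

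Downstream of the receptors, the cytoskeletal genes mostly fell in WT cells given S1P. Of 28 genes tested of the phagocytic cup's actin machinery 2 rose and 17 fell in WT S1P against WT untreated cells, with a median of -0.15 against 0.0038 over all genes tested, of which 52.4% were called (2869 higher and 3095 lower). Arpc3, a subunit of the actin-branching Arp2/3 complex, had 111 ± 10.96 FPKM in WT S1P and 152 ± 5.80 in WT untreated cells (n = 4, SD) and fell by 0.45 on the log2 scale (limma adjusted p = 2.92e-07). Gsn, which severs filaments, fell by 0.28 and Rac1, the GTPase that drives cup extension, by 0.28 (adjusted p = 6.49e-07 and 2.84e-06). In KO S1P against WT S1P cells 17 of these genes were higher and 3 lower, with a median of 0.13 against 0.00031 over all genes, of which 52.4% were called (3066 higher and 2892 lower). With TPM scaling the counts were 0 and 18, and 9 and 3. The 2 comparisons share the WT S1P libraries.

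Of 28 proximal kinases and scaffolds tested 7 rose and 13 fell with S1P in WT cells, with a median of -0.08, where 52.4% of all genes were called. Src rose by 1.38 ± 0.11 (limma adjusted p = 2.15e-09), at a low level of 2.96 ± 0.736 FPKM in WT S1P against 0.504 ± 0.0708 in WT untreated cells. Pik3cg, a PI3-kinase subunit, fell by 0.92 (adjusted p = 1.02e-08) and Fyn, a Src-family kinase, by 0.42 (adjusted p = 3.2e-09). In KO S1P against WT S1P cells 12 of the 28 were higher and 6 lower (median 0.04), where 52.4% of all genes were called as well. Src was at -1.50 ± 0.11, Pik3cg at 0.96 ± 0.09 and Fyn at 0.38 ± 0.04 there (limma adjusted p = 6.72e-10, 6.64e-09 and 1.38e-08). With TPM scaling 8 of the 28 were higher and 6 lower in that comparison (median -0.0098).

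The inhibitors of ITAM signalling, whose products act beside or after Fcgr2b, fell in 6 of 11 cases with S1P in WT cells and rose in 2, with a median of -0.11, where 52.4% of all genes were called. Dok2, an adaptor that restrains Ras, fell by 0.59, Ptpn6, the phosphatase SHP1, by 0.34 and Inpp5d, the SHIP1 phosphatase that Fcgr2b recruits, by 0.37 (limma adjusted p = 6.96e-08, 5.64e-07 and 1.23e-06). In KO S1P against WT S1P cells 7 were higher and 3 lower, where 52.4% of all genes were called as well. Inpp5d was at 0.62 ± 0.05 in that comparison (limma adjusted p = 9.17e-10), or 46.7 ± 1.07 FPKM in KO S1P and 30.03 ± 2.23 in WT S1P cells (SD, n = 4).

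Under ACM, where 22.1% of all genes were called against 52.4% under S1P, the direction of the list counts depended on scaling. In WT ACM against WT untreated cells 7 kinases and scaffolds rose and 3 fell, 5 actin genes rose and 4 fell, and 4 inhibitors rose and 0 fell although their median was -0.03. With TPM scaling, which moved the median of all genes by -0.11, these counts were 1 and 8, 1 and 8, and 0 and 4. Syk, the kinase recruited by Fcer1g, rose by 0.15 ± 0.02 (limma adjusted p = 0.000142), Rac2, which also assembles the NADPH oxidase, by 0.33 ± 0.05 (0.000208) and Inppl1, the SHIP2 phosphatase, by 0.22 ± 0.04 (0.0013), though Inppl1 was not called higher with TPM scaling. In KO ACM against WT ACM cells 5 kinases and scaffolds were higher and 5 lower, 3 actin genes higher and 6 lower, and 2 inhibitors higher and 3 lower, where 28% of all genes were called. Rac2 was at -0.34 ± 0.05 and Inppl1 at -0.41 ± 0.04 in that comparison (adjusted p = 7.09e-05 and 1.13e-06).

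Of the 5 NADPH oxidase genes, which make superoxide in the phagosome, 3 rose and 0 fell with ACM in WT cells (1 and 1 with TPM scaling), where 22.1% of all genes were called. Cybb, the catalytic subunit, had 133 ± 4.15 FPKM in WT ACM and 93.4 ± 2.01 in WT untreated cells (SD, n = 4) and rose by 0.51 ± 0.14 (limma adjusted p = 0.0109). In KO ACM cells Cybb had 67.1 ± 2.51 FPKM, a difference of -0.98 ± 0.14 from WT ACM cells (adjusted p = 1.84e-05). With S1P, 2 of the 5 rose and 1 fell in WT cells, Cyba by 0.42 ± 0.04 and Ncf4 by 0.43 ± 0.04 upwards, and Ncf1 by -0.24 ± 0.05 (adjusted p = 5.1e-08, 1.84e-08 and 0.000211), where 52.4% of all genes were called. In KO S1P against WT S1P cells 1 of them was higher and 3 lower, where 52.4% were called as well.

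Of 12 other receptors that pair with Fcer1g 4 were tested, and with S1P in WT cells 3 rose and 0 fell, where 52.4% of all genes were called. Clec4n (Dectin-2) rose by 1.55 ± 0.26, Clec4d (MCL) by 0.39 ± 0.04 and Clec4e (Mincle) by 0.41 ± 0.08 (limma adjusted p = 3.35e-05, 1.4e-08 and 0.000115). Clec4n had 192 ± 48.2 FPKM in WT S1P and 63.4 ± 1.90 in WT untreated cells (SD, n = 4). With ACM 2 of the 4 rose in WT cells, where 22.1% of all genes were called, Clec4d by 0.15 ± 0.04 and Clec4e by 0.28 ± 0.08 (adjusted p = 0.00661 and 0.0123), and with TPM scaling none did. Tyrobp, the related adaptor used by Trem2, did not pass with ACM or S1P in WT cells, at 0.00 ± 0.05 and -0.08 ± 0.05 (adjusted p = 0.966 and 0.228).

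B2m, the light chain that pairs with the Fcgrt product, rose with ACM by 0.26 ± 0.05 and with S1P by 0.18 ± 0.05 in WT cells (limma adjusted p = 0.000337 and 0.00229), the opposite of Fcgrt. With TPM scaling neither rise was called. Among 11 other Fc receptors and Fc receptor-like genes 2 were tested, and in each WT treatment 1 rose and 1 fell, where 22.1% (ACM) and 52.4% (S1P) of all genes were called. Fcrls, a macrophage scavenger-type Fc receptor-like gene, had 23.0 ± 1.25 FPKM with ACM and 10.9 ± 3.82 with S1P in WT cells, against 55.8 ± 2.01 in WT untreated cells (SD, n = 4). It fell by 1.24 with ACM and by 2.31 with S1P (adjusted p = 9.26e-05 and 2.42e-09). Fcrl1 rose by 0.22 ± 0.07 with ACM and 0.54 ± 0.07 with S1P (adjusted p = 0.0237 and 7.47e-07), but with TPM scaling the ACM rise was not called. Fcmr, Fcamr and Pigr were listed at 0 in every library.

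In KO cells 0 genes of the 7 lists were called for ACM or S1P against KO untreated cells by limma, where 0.00879% of all genes were called. Without the library labelled KO untreated 81 there was 1, Cblb, a ubiquitin ligase that restrains kinase signalling, lower with S1P at -0.20 ± 0.04 (adjusted p = 0.0459), where 0.185% of all genes were called. Between KO untreated and WT untreated cells 5 of 82 list genes tested were called with all libraries, where 2.47% of all genes were called: Cblb, Gab2, Wipf1 and B2m higher and Myo1e lower. Without that library 16 of 82 were called, where 8.15% of all genes were, among them Clec4n at 1.06 ± 0.12 (adjusted p = 4.35e-06), Cybb at -0.44 ± 0.08 (0.00152) and Inpp5d at 0.20 ± 0.04 (0.00262).

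**Figure D4:**
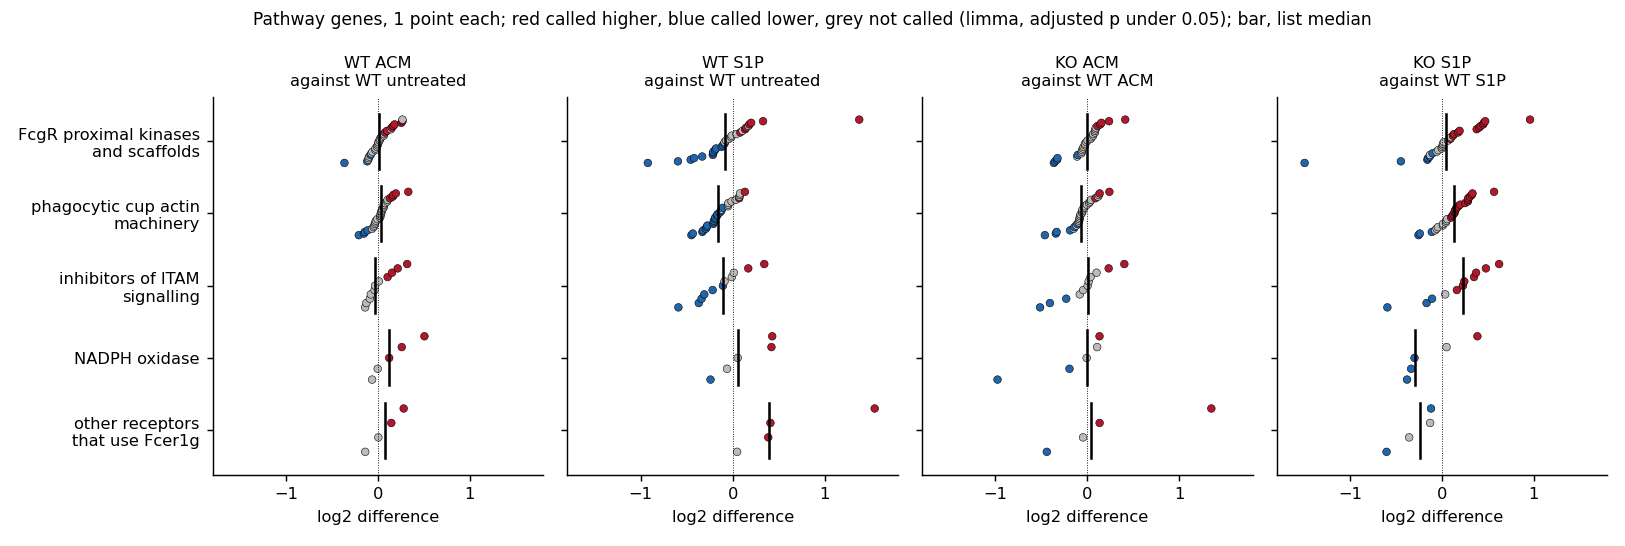
Log2 differences (limma) of the pathway genes, 1 point per gene with the list median as a bar, in 4 comparisons. Most actin genes lie left of 0 in WT S1P against WT untreated cells and right of 0 in KO S1P against WT S1P cells.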

How the data were processed

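Polyadenylated RNA was sequenced from 24 libraries, per the labels' protocols. The authors deposited FPKM per gene. Tools listed in the submitters' processing notes are StringTie, featureCounts, STAR, STAR-Fusion, HISAT2, DESeq and edgeR, with builds mm10 and GRCm38; which did what, with which version or strand setting, is not known here. Identifiers were matched to GENCODE M21 (54495 of 54532 rows). Whole reads, recovered from FPKM and exon length, came out for 96.4 to 96.7% of values per library (tolerance 0.05) and served only to give depth; 0 pairs of libraries were identical.

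Genes with FPKM of at least 1 in at least 4 libraries (11377) were tested as log2(FPKM + 1), which understates changes of low genes, with limma 3.58.1 in R 4.3.3: 6 group means were fitted together, with a trend of variance on level, for 11 comparisons, Benjamini-Hochberg adjusted over all genes, called at adjusted p under 0.05. The test was checked on simulated data. Named genes are the 6 members, Trem2, the 5 genes most correlated with each member, and up to 3 genes per list with the smallest adjusted p; list genes called in KO untreated or treated KO cells, followed across comparisons, were added after their values were seen. The members and lists were chosen with earlier results of these data known. Alternatives were pseudocount, filter, 4 scalings, trend, robust fit, fit of only the groups compared, each library left out, and exact permutation.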

Additional observations from a re-analysis of the deposited data

Results flagged for a closer look

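A value in a group of 4 libraries was singled out when its gap to the nearest other exceeded Dixon's critical share of the range. This flagged 11 of 72 groups, where chance gives about 1 in 20 for independent groups. These groups are not independent, as the ratios reuse the member values and a library enters many of them. The count of flags therefore cannot be read against that rate. The library labelled KO untreated 81 accounts for most: 138 FPKM of Fcgr1, 32.0 of Fcgr2b and 53.8 of Fcgr4, and log2 ratios of 2.11 for Fcgr1 to Fcgr2b, 3.07 for Fcgr3 to Fcgr2b, 0.75 for Fcgr4 to Fcgr2b, -2.32 for Fcgr4 to Fcgr3 and -0.96 for Fcgr1 to Fcgr3. That library also has the Trem2 level of WT untreated cells. The others were Fcgr2b in WT untreated 4 (40.9 FPKM), Fcgr3 in WT untreated 1 (264 FPKM) and the log2 ratio of Fcgr1 to Fcgr2b in KO ACM 87 (0.051).

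The response to treatment differed between KO and WT cells in 9 tests of the interaction, given as the KO minus the WT response in log2 units (limma). Under ACM these were Fcgr1 (-0.88), Fcgr2b (0.89), Fcgr3 (0.35) and Fcgr4 (-1.60). Under S1P they were Fcgr2b (1.81), Fcgr3 (0.83), Fcgr4 (-0.93), Fcer1g (0.41) and Fcgrt (0.49). All 9 were called under the 34 alternative settings.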

How the results depend on the processing

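Of 66 member differences 35 were called, and 31 of these stayed called in all 34 settings; none changed sign. The 4 others were Fcgr1 and Fcgrt under ACM and Fcgr4 under S1P in WT cells, and Fcgrt between WT ACM and WT S1P cells. With no filter 3 of 6 members were called for WT ACM against WT untreated cells, in place of 5, as more genes are then tested. Leaving out 1 library each gave 4 to 5 there and 0 to 3 for KO untreated against WT untreated cells; the 3 came without the library labelled KO untreated 81. The count over all genes in that comparison was 112 to 926 in place of 281.

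Uncalled differences that changed sign, with the range over libraries left out, follow. Fcer1g for WT ACM against WT untreated cells was -0.0904 with TPM, -0.00813 with protein-coding and -0.0779 with quantile scaling, and -0.00044 to 0.0403 over libraries. Fcer1g for KO ACM against KO S1P cells was 0.0201 with TPM and 0.0095 with quantile scaling, and -0.0544 to 0.0148 over libraries. Fcgrt for KO ACM against KO S1P cells was 0.0045 with TPM scaling. Over libraries, Fcgrt for KO ACM against KO untreated cells was -0.0267 to 0.069, Fcgr3 for KO ACM against KO S1P cells -0.00061 to 0.0217, Fcgr1 for KO untreated against WT untreated cells -0.324 to 0.0207 and the S1P interaction of Fcgr1 -0.177 to 0.168. The cause was not tested.

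Exact permutation fell on the same side of 0.05 as limma for 48 of 54 differences. The measures are unlike, as limma's p was adjusted over all genes and the permutation p was not. In the other 6 only the permutation p was under 0.05. No paired analysis was possible because the groups share no replicate numbers.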
